A study of Gallus gallus with 18 samples.

Results

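The 8 innate defence genes of the chicken described here, all present in the table of 23741 genes, were followed through 18 RNA-seq libraries: the avian beta-defensins AvBD1, AvBD2, AvBD9 and AvBD10, the cathelicidin CAMP, the liver peptide LEAP2, the calcium-binding protein S100A9 and the goose-type lysozyme LYG2. They were taken by symbol as antimicrobial peptides and proteins and heterophil genes, with earlier results of these data known. The libraries are polyA RNA of Arbor Acres broiler breeders, 3 per group in 6 groups. Roosters received 0.25 mg (FCON) or 5 mg (FE) folic acid per kg of feed and gave liver and sperm at 35 weeks, except that sperm FE replicate 3 is labelled 36 weeks. Liver of their day-old offspring was pooled from 4 chicks per library, and FCON or FE there names the diet of the father. The study asks how the folic acid given to a rooster relates to RNA in its liver, its sperm and the liver of its chicks.

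Beta-defensins and cathelicidins are short cationic peptides that damage microbial membranes. Heterophils, the avian counterpart of mammalian neutrophils, have no defensin of the mammalian alpha class and store beta-defensins and cathelicidins in their granules, while epithelia and liver make other beta-defensins directly. Adult liver also secretes LEAP2, and lysozymes cleave the peptidoglycan of bacterial walls. In bulk RNA, fewer cells of a type and less RNA per cell cannot be told apart.

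The libraries held 17.0 to 43.1 M estimated counts (M, mega) and differed in more than their labels. Nuclear rRNA took 3.02 to 8.75% of the rooster FCON libraries and 32.8 to 60.5% of the rooster FE libraries. Genes of the W chromosome, which hens carry and roosters lack, stood at 0 to 2.07 CPM (counts per M of the plain total) in rooster FE and at 1015 to 1117 CPM in each of the 3 libraries labelled rooster FCON. The day-old pools numbered 2 held 963 CPM (FCON) and 1299 CPM (FE) of W counts. The libraries labelled rooster FCON were also the closest to each other, with a median coefficient of variation of 4.19% over 3649 genes with a mean of at least 10 FPKM, against 13.4% in rooster FE and 23.8 to 38.1% in the other 4 groups. Counting error alone had a median of 2.01% in rooster FCON and 3.21% in rooster FE. Whether the 3 libraries labelled rooster FCON are separate birds was not tested. The SE and p of their comparisons may thus not measure the spread between birds. Each comparison with rooster FCON therefore rests on libraries that differ from rooster FE in W counts and rRNA as well as diet, and these cannot be told apart; each comparison by age or tissue is given for FCON and for FE.

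Levels of a gene across libraries are counts per M after TMM scaling (CPM), a scaling on the bulk of genes that reduces the effect of the rRNA share. It does not remove it fully: without rRNA genes, calls for sperm against rooster liver under FE moved from 2804 higher and 2150 lower to 2644 and 2355. Levels are compared between genes in the deposited FPKM, which are per length but are relative to the whole library, rRNA included. Changes are log2 differences with standard error (SE) from edgeR's quasi-likelihood test on the counts. A gene was tested if it reached 1 FPKM in at least 3 libraries of the comparison. It is said to rise or fall if its Benjamini-Hochberg adjusted p over all genes tested was below 0.05.

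**Figure D1:**
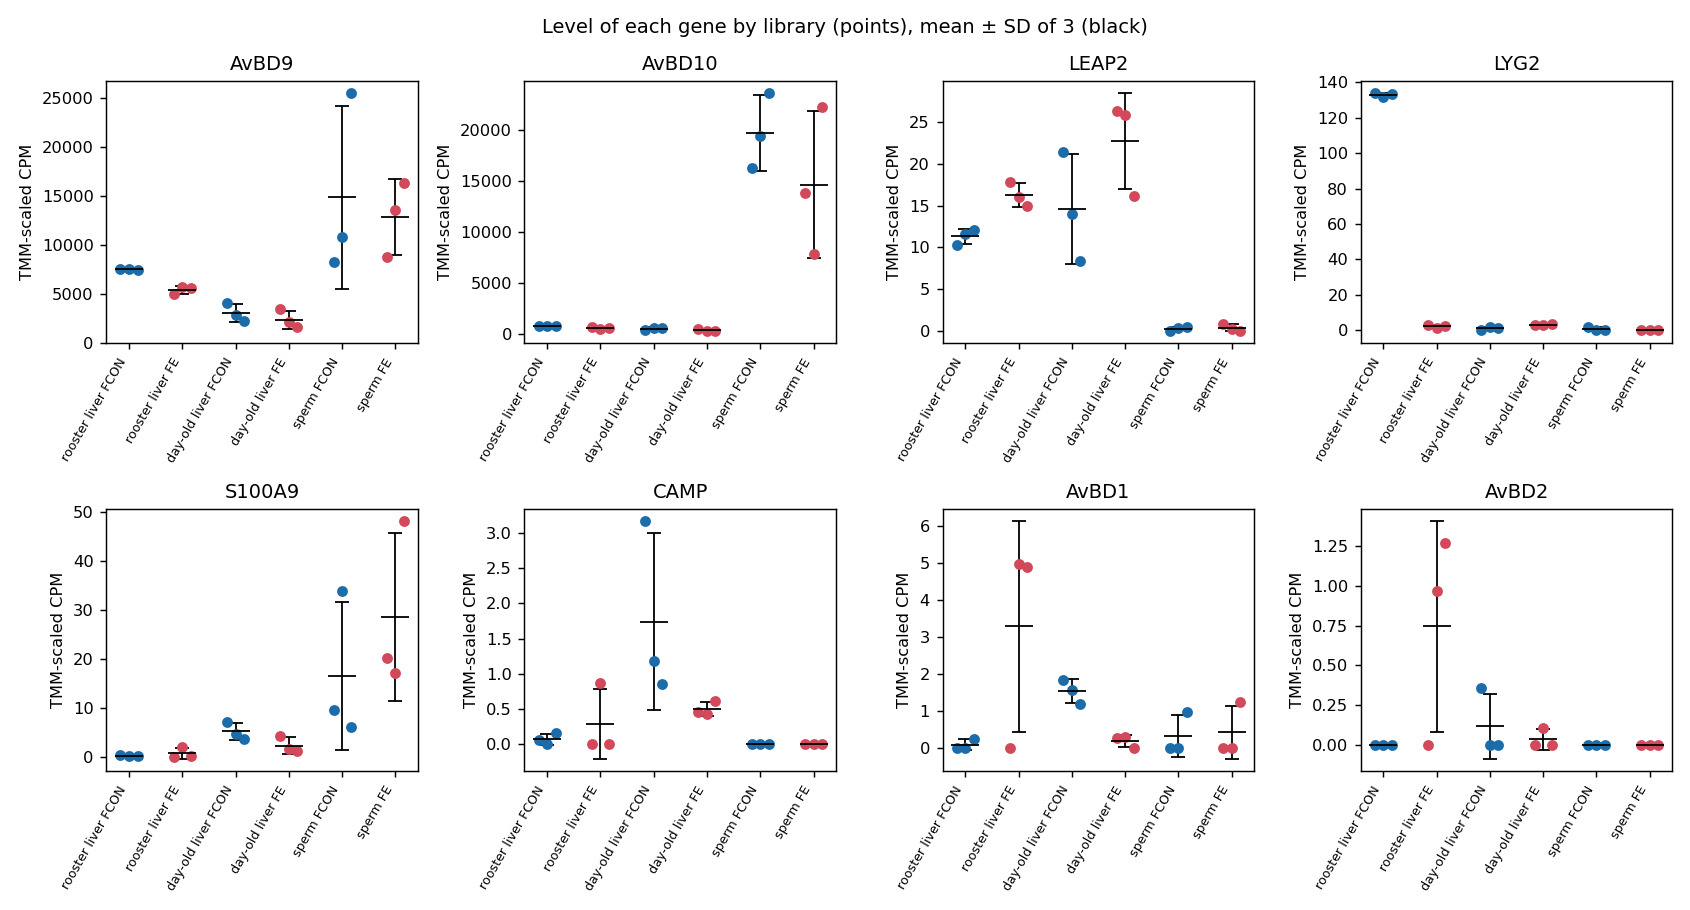
TMM-scaled CPM (vertical axes, linear, each with its own range) of the 8 genes in the 18 libraries. Points are libraries, blue FCON and red FE, and black marks are the mean and SD of 3. AvBD9 and AvBD10 reach 25490 and 23657 CPM in sperm, LYG2 stands at 132 to 134 CPM in the libraries labelled rooster FCON and below 4 CPM elsewhere, and CAMP, AvBD1 and AvBD2 stay below 5 CPM in all libraries.

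The 4 beta-defensin genes lie together on chromosome 3 of the deposited table, whose genome build is not given in the sources used here. AvBD10 spans 107427133 to 107429773 and AvBD9 spans 107433951 to 107437008, both on the plus strand. AvBD2 spans 107453324 to 107455848 on the plus strand and AvBD1 spans 107457273 to 107459717 on the minus strand. They belong to a row of 14 defensin genes between 107393000 and 107478873. CAMP lies on chromosome 2 from 4074457 to 4076222 on the minus strand, next to the cathelicidins CATH3, CATHB1 and CATH1, and the table describes it as cathelicidin-2. LEAP2 lies on chromosome 13 from 17779200 to 17780947 on the plus strand. LYG2 lies on chromosome 1 from 133828098 to 133831585 on the minus strand and is described as lysozyme g. The gene listed as S100A9 lies on chromosome 25 from 3296969 to 3298404 on the minus strand, is described as protein MRP-126, and has the symbol S100A12 in the RefSeq gene table. None of the 8 genes overlaps another gene of the table on either strand. Reads of transcripts outside the table, or running on from a neighbouring gene, were not tested. AvBD8, on the minus strand, lies 969 bp from AvBD9. Defensins and cathelicidins are also families of related copies, and how reads matching several genes were counted is not given in the sources used here.

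By FPKM, AvBD9 was the highest of the 8 genes in liver. It stood at 15961 ± 603 FPKM (SD, n = 3) in the libraries labelled rooster FCON, where it was the fourth most abundant gene of the table in all 3 libraries (place 4). It stood at 6523 ± 2264 in rooster FE, 5028 ± 2168 in day-old FCON and 5056 ± 1610 in day-old FE liver. AvBD10 was the second of the 8, with 1672 ± 59.8 FPKM in rooster FCON and 664 ± 146 in rooster FE, so that AvBD9 was 9.50 to 9.58 times AvBD10 in the FCON libraries and 6.86 to 12.7 times in the FE libraries. LEAP2 was the third of the 8 in all liver groups but rooster FCON, at 56.2 to 144 FPKM as group means. Outside the 8 genes, the defensin AvBD13 stood above AvBD10 in day-old liver, at 1406 FPKM in FCON and 1775 in FE, and the iron-binding protein TF stood at 6019 FPKM in day-old FE liver. The heterophil genes S100A9, CAMP, AvBD1 and AvBD2 were at or below 10.2 FPKM as group means in every liver group.

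Sperm held a different order. AvBD10 stood there at 23296 ± 10649 FPKM in FCON and AvBD9 at 16957 ± 11972, and in single sperm libraries of either diet each of the 2 genes took places 2 to 12 in the table. The ratio of AvBD9 to AvBD10 was 0.489, 0.532 and 1.03 in sperm FCON and 0.607, 1.65 and 0.703 in sperm FE. Every sperm library lay below the lowest liver ratio, 4.07 in day-old FCON replicate 3. Together both genes took 1.15 to 4.01% of all counts in sperm FCON and 0.797 to 4.17% in sperm FE, against 1.21 to 1.31% in rooster FCON, 0.322 to 0.654% in rooster FE and 0.283 to 0.582% in day-old liver. Intervals for such shares cover counting error only: the AvBD9 share of sperm FCON replicate 1, 0.389%, had a Wilson 95% interval of 0.386 to 0.391%.

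**Figure D2:**
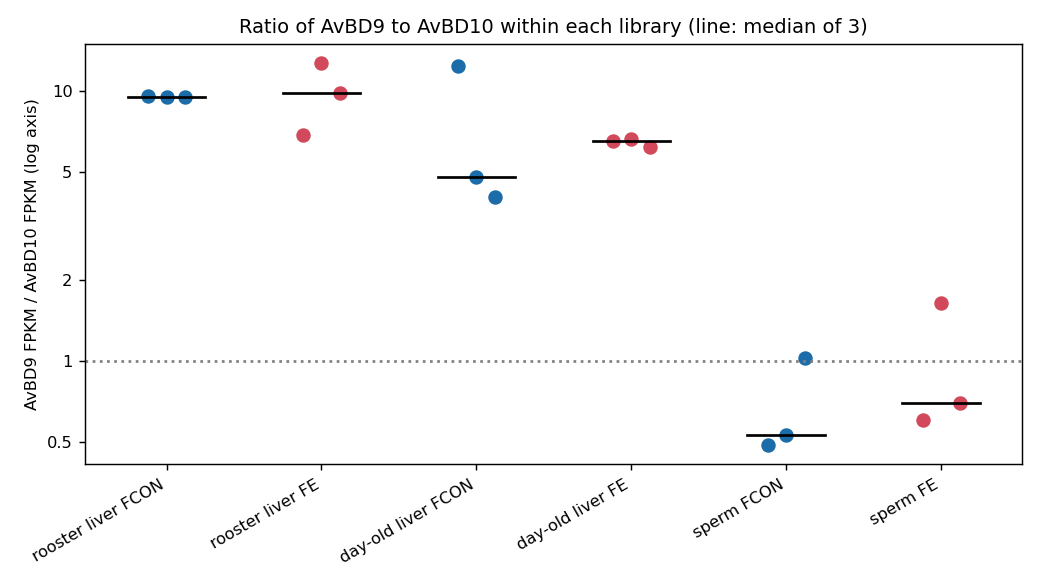
AvBD9 FPKM divided by AvBD10 FPKM within each library (vertical axis, logarithmic) for the 6 groups of 3. Points are libraries, blue FCON and red FE, lines are medians, and the dotted line marks equal FPKM. The 12 liver libraries lie between 4.07 and 12.7 and the 6 sperm libraries between 0.489 and 1.65.

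Across tissues, AvBD10 and S100A9 were higher and LEAP2 was lower in sperm than in rooster liver under both diets. The tests did not pair sperm with liver, though the titles give both the same rooster numbers. AvBD10, which is known in the chicken from liver and the reproductive tract, was measured in sperm at 16234, 19387 and 23657 CPM in FCON and 13779, 7862 and 22254 CPM in FE. The same gene was at 757, 761 and 746 CPM in rooster FCON liver and 694, 434 and 542 CPM in rooster FE liver. Every sperm library was thus above every liver library. AvBD10 was higher in sperm by 4.74 (SE 0.37) log2, 26.7-fold, in FCON (adjusted p = 0.00043) and by 4.76 (SE 0.52) log2, 27.1-fold, in FE (adjusted p = 0.00025).

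AvBD9, a defensin of many chicken tissues, showed a smaller difference and a wider spread in sperm. Sperm FCON libraries held 8308, 10778 and 25490 CPM and sperm FE libraries 8747, 13538 and 16355 CPM. All 6 lay above the rooster livers, at 7588, 7562 and 7450 CPM in FCON and 4975, 5760 and 5584 CPM in FE. AvBD9 was higher in sperm than in rooster liver under FE, by 1.29 (SE 0.36) log2 (adjusted p = 0.0178). Under FCON the difference was 1.00 (SE 0.50) log2 and did not pass the test (adjusted p = 0.140), and on FPKM (limma on log2(FPKM + 1), here and wherever a difference is given on FPKM) it was -0.22. The median of all genes shifted by -0.87 on that scale. The FE call was lost in 6 of 15 alternatives. Among them were any 1 rooster FE library left out (adjusted p up to 0.124) and scaling to library totals, where the difference was 0.98. Over the 15 alternatives the difference went down to 0.80 and the adjusted p up to 0.495.

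LEAP2, a cysteine-rich peptide that in mammals also blocks the ghrelin receptor, was near the lower limit of detection in sperm. It had 20 counts over the 3 sperm FCON libraries and 15 over the 3 sperm FE libraries, with 0 to 0.811 CPM per library, against 10.3, 11.5 and 12.1 CPM in rooster FCON liver and 17.8, 16.1 and 15.0 CPM in rooster FE liver. The groups did not overlap. LEAP2 was lower in sperm, with a log2 difference of -5.40 (SE 0.78, adjusted p = 0.00226) in FCON and of -5.62 (SE 1.05, adjusted p = 0.00286) in FE. Without sperm FE replicate 1 or 3 the latter was -7.77 or -4.82. The 3 genes whose log2(CPM + 1) ran closest to LEAP2 over the 18 libraries were C8A, FGA and SLCO2B1, each with Pearson r = 0.98, a description over libraries that share a tissue within each group.

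S100A9 is a calcium-binding alarmin that in mammals fills the cytoplasm of neutrophils. It was measured in sperm FCON at 9.56, 33.9 and 6.22 CPM and in sperm FE at 20.3, 17.2 and 48.3 CPM. Rooster liver held 0.435, 0.257 and 0.266 CPM in FCON and 0, 2.14 and 0.220 CPM in FE, below every sperm library. The difference of sperm over liver was 5.73 (SE 0.84) log2 in FCON (adjusted p = 0.00242) and 5.15 (SE 1.16) log2 in FE (adjusted p = 0.00684). Without sperm FCON replicate 2 the FCON difference was 4.74, and without rooster FE replicate 1, 2 or 3 the FE difference was 4.43, 7.63 or 4.52. The heterophil granule genes CAMP and AvBD2 had 0 counts in all 6 sperm libraries, which allows up to 0.0422 CPM in FCON and 0.0578 CPM in FE, at 3 counts over a group. LECT2, a chemotactic factor, also had 0 counts there, and AvBD1 had 23 counts in 1 sperm FCON library and 32 in 1 sperm FE library. Other heterophil and granulocyte genes were present in sperm. GFI1, a transcription factor of granulocyte development, held 2.03 to 67.1 CPM there and was higher than in rooster FE liver by 5.45 log2 (adjusted p = 0.00027), and CXCR1, a chemokine receptor, was higher by 2.96 log2 (adjusted p = 0.0108). Both passed the filter under FE only through sperm, with at most 0.32 and 0.33 FPKM in rooster FE liver. Their direction was thus set in advance. NCF1, a subunit of the oxidase of phagocytes, held 0 to 24.8 CPM in sperm and CSF3R, the receptor of the granulocyte growth factor, 0 to 11.9 CPM. Of 9 genes of this list tested under FE, 2 were higher and 3 lower in sperm, beside 29.9% of all genes higher and 22.9% lower. The 3 lower were PGLYRP2, CYBB and RSFR, with log2 differences of -5.44, -3.61 and -3.12. Among these, PGLYRP2 and CYBB passed the filter only through liver, with at most 0.65 and 0.50 FPKM in sperm FE. Under FCON 0 of 9 were higher and 3 lower, beside 24.1% and 25.5%. The 3 lower were PGLYRP2, ITGB2 and RSFR. PGLYRP2 and ITGB2 passed the filter there only through liver, with at most 0.26 and 0.65 FPKM in sperm FCON. Their direction was thus set in advance.

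LYG2 was lower in sperm than in rooster liver as well. It had 26 counts in sperm FCON replicate 1 and 0 in the other 5 sperm libraries. Against the libraries labelled rooster FCON its log2 difference was -7.82 (SE 1.74, adjusted p = 0.0113). It was -7.05 and -7.09 without sperm FCON replicate 2 or 3, and without replicate 1, which leaves 0 counts in sperm FCON, the fitted value was -15.62 and is no bound. Against rooster FE, where it had 116 counts in all, it was at least 39.6-fold lower with 3 counts assumed over the sperm FE group. In all, of the 5 genes tested under FCON 2 were higher and 2 lower in sperm, against 49.6% of all 10765 genes called (24.1% higher, 25.5% lower), and of the 5 tested under FE 3 were higher and 1 lower, against 52.8% of 9374 genes (29.9% higher, 22.9% lower). All 5 tested genes had no overlap between groups under FCON and 4 of 5 under FE, where AvBD1 overlapped, beside 66.9% and 66.8% of all genes tested. LYG2 passed the filter under FCON only through liver, with at most 0.71 FPKM in sperm, so its lack of overlap was set in advance. With any 1 library labelled rooster FCON left out, the 5337 genes called under FCON became 2742 to 2762.

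The sperm libraries carried markers of germ cells and of genital tract epithelium. Summed over 10 germ cell genes they held 177 to 1585 CPM, against 15.4 to 31.2 CPM in liver. Summed over 5 genital tract genes they held 142 to 302 CPM, against at most 2.55 CPM in liver. Of these 5 genes, 2 had 0 counts in sperm FCON and 2 had 0 counts in sperm FE, and 3 further symbols of the list were not matched. The 2 tested, PAX2 and GGT1, were higher in sperm under both diets, beside 24.1% of all genes in FCON and 29.9% in FE. In comparisons of livers alone, 0 of the 5 genes reached the level for testing. PAX2 and GGT1 thus needed sperm to pass the filter, which set their direction in advance. The genes closest to AvBD10 over the 18 libraries were EMX2, MSMP and TFAP2B, each with r = 0.98. EMX2, a transcription factor of the developing urogenital tract, had a mean of 39.1 FPKM in sperm FCON, 22.4 in sperm FE and at most 0.02 in any liver group. Hepatocyte genes, 18 in all, summed to 671 to 1920 CPM in sperm and 31113 to 96794 CPM in liver. Which cells of the sperm libraries held AvBD9, AvBD10 and S100A9 was not tested.

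**Figure D3:**
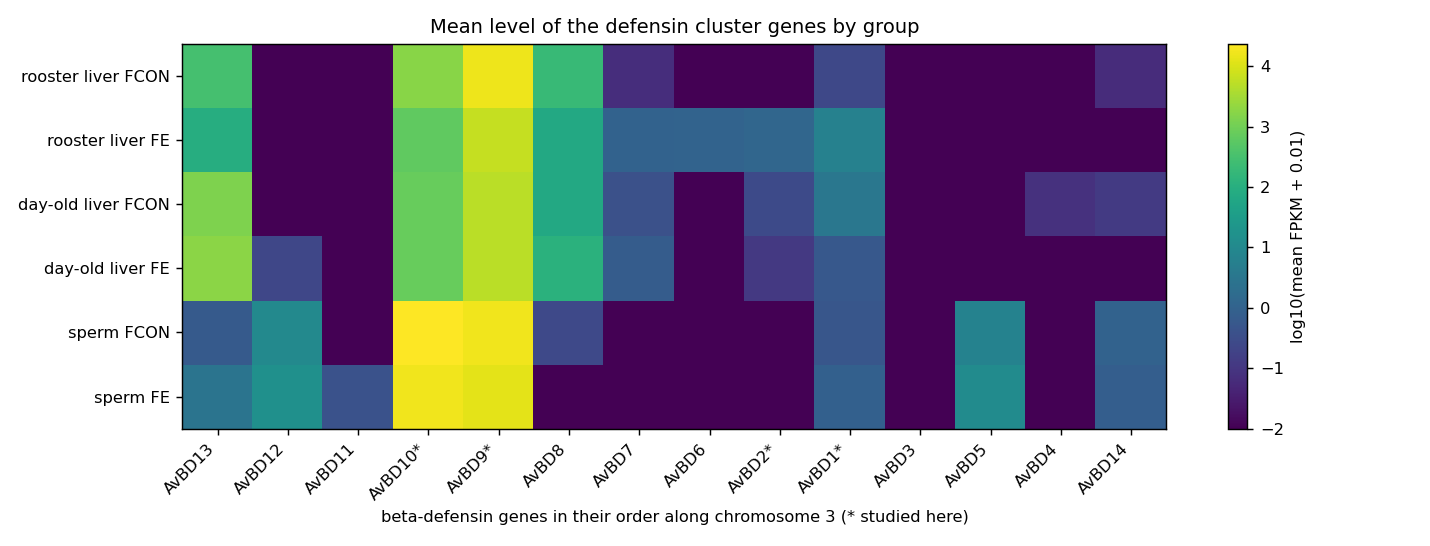
Mean FPKM of the 14 defensin genes of chromosome 3 in their order (horizontal axis) for the 6 groups (rows), coloured as log10(mean FPKM + 0.01). AvBD10 and AvBD9 are high in all groups, AvBD13 and AvBD8 in the liver groups, AvBD12 and AvBD5 in the sperm groups, and AvBD3 has 0 counts in all 18 libraries.

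Within the defensin row, neighbouring genes differed in where they were found. AvBD13, at 1 end of the row, held 301.5, 507.7 and 243.3 CPM in day-old FCON liver, 63.5, 41.8 and 63.0 CPM in rooster FCON liver and 0 to 0.468 CPM in sperm FCON. It was higher in day-old than in rooster liver under both diets, by 2.72 (SE 0.33) log2 in FCON (adjusted p = 0.00302) and 3.54 (SE 0.67) log2 in FE (adjusted p = 0.00675), the opposite direction to AvBD9. AvBD8, beside AvBD9, was a liver gene too, with 118 ± 2.43 CPM in rooster FCON and 80.9 ± 21.1 in rooster FE, 0 counts in sperm FE and 20 counts in sperm FCON. AvBD12 and AvBD5 had 442 and 372 counts in sperm FCON and 622 and 559 counts in sperm FE. Liver had none of AvBD5 and only 8 counts of AvBD12, in day-old FE replicate 3.

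With the higher folic acid, 3 of the 4 genes tested in rooster liver passed the test: LYG2 and AvBD9 were lower in FE and LEAP2 was higher. Of all 10291 genes tested in this comparison, 41.5% were called, 20.4% higher and 21.1% lower. These 4269 calls became 2560 to 2605 with any 1 library labelled rooster FCON left out. No group overlap was seen for any of the 4, as for 58.4% of all genes, so a call here does not set a gene apart. The other 4 genes, S100A9, CAMP, AvBD1 and AvBD2, were below the level for testing.

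LYG2 showed the widest gap. It held 8603, 7170 and 8504 counts in the libraries labelled rooster FCON and 41, 27 and 48 in rooster FE. In CPM these are 134, 132 and 133 against 3.17, 1.38 and 2.65. The log2 difference of FE against FCON was -5.74 (SE 0.29, adjusted p = 3.1e-05), which is 53.3-fold lower, and it was between -5.42 and -6.69 in all 16 alternatives. Day-old livers, whose pools numbered 2 also held W counts, had 0.297, 2.01 and 1.16 CPM in FCON and 2.93, 2.99 and 3.48 CPM in FE. The pool with W counts was the highest of the 3 in FCON, at 2.01 CPM, and the middle one in FE, at 2.99 CPM. The part of the W difference in the gap between roosters was not tested. The genes closest to LYG2 over the 18 libraries were ALPP (r = 0.96), SC5D (r = 0.95) and IGF1 (r = 0.94). IGF1, a growth factor made in liver, was listed at a mean of 3.25 FPKM in the libraries labelled rooster FCON and at 0 in the other 5 groups.

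AvBD9 fell by 0.39 on the log2 scale (SE 0.08, adjusted p = 0.00773), 1.31-fold, from 7533 ± 73.5 CPM in FCON to 5439 ± 412 CPM in FE. AvBD10 had a difference of -0.36 (SE 0.17) with an interval of -0.68 to -0.03 and did not pass (quasi-likelihood test, unadjusted p = 0.069, adjusted p = 0.128). The AvBD9 call was lost in a fit of all 12 livers together (adjusted p = 0.312). On library totals and on FPKM, both relative to totals that include rRNA, the median of all genes shifted by -0.94 and -0.76. AvBD10 reached -1.32 and -1.35 there with a call. The part of the rRNA share in these shifts was not tested. Without rooster FE replicate 1 AvBD10 also passed, at -0.54.

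LEAP2 rose by 0.61 (SE 0.15) log2 in FE (adjusted p = 0.0171), from 10.3, 11.5 and 12.1 CPM to 17.8, 16.1 and 15.0 CPM, with no overlap. This direction depends on the scaling: with library totals the difference was -0.33 and on FPKM -0.35. Relative to the shift of the median gene it stayed positive under both. The call was lost with any 1 library labelled rooster FCON left out (adjusted p up to 0.108).

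The heterophil genes were near the lower limit of detection in rooster liver. AvBD1 had 0, 0 and 16 counts in FCON and 0, 98 and 89 counts in FE. AvBD2 had 0 counts in all FCON libraries and 0, 19 and 23 in FE, where 1 library thus also had none. Most counts of both in rooster liver came from rooster FE replicates 2 and 3. CAMP had 14 counts in FCON and 17 in FE, and S100A9 had 59 and 46. Among rooster livers, the 2 with AvBD2 also had the most CATH3, a further chicken cathelicidin, with 1.47, 9.68 and 6.39 CPM in the 3 FE libraries. AvBD1 and AvBD2 correlated over the 18 libraries at r = 0.83, a description in which most libraries share values at or near 0.

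Of 16 further heterophil and granulocyte genes measured, 9 were tested in rooster liver. Beside each list count that follows, 20.4% of all genes tested rose and 21.1% fell. CYBB, a further oxidase subunit, NCF1 and CSF3R rose by 1.34, 1.01 and 0.68 log2 (adjusted p = 0.00524, 0.0434 and 0.0269), and 6 did not pass. These changes are relative to the median gene: in FPKM, CSF3R stood at 2.25 to 2.61 in FCON and 1.31 to 2.90 in FE. The median log2 difference of the 9 was 0.41, against -0.03 over all genes. Macrophages also use CYBB and NCF1, and macrophage markers rose in 8 and fell in 1 of 11 tested, with sums of 692 to 705 CPM in FCON and 1034 to 1171 CPM in FE. T and NK cell markers rose in 5 of 6, with sums of 97.1 to 105 and 322 to 422 CPM, and all 3 B cell markers tested rose. Hepatocyte markers fell in 11 and rose in 2 of 17, with sums of 95580 to 96794 CPM in FCON and 47427 to 73389 CPM in FE. Their part in the differences of AvBD9, LEAP2 and LYG2 was not tested.

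Of 17 other antimicrobial genes, 6 were tested in rooster liver. GNLY, a granulysin that also counts in the T and NK cell list, rose by 2.10 log2 (adjusted p = 0.00012), the siderophore-binding EXFABP by 1.85 (adjusted p = 0.00114) and the c-type lysozyme LYZ by 1.60 (adjusted p = 0.00717). AvBD13 fell by 0.84 on the log2 scale (adjusted p = 0.0263). LYZ thus moved opposite to the g-type lysozyme LYG2. Of 31 genes of pattern sensing and induction, 22 were tested, 6 rose, 1 fell and 15 did not pass, beside 20.4% of all genes higher and 21.1% lower, so the count does not set the list apart. STAT3, a transducer of cytokine signals, rose by 0.90, MYD88, the adaptor of Toll-like receptors, by 1.23 and TLR4, the receptor for lipopolysaccharide, by 1.65 log2, and IL6R, the interleukin 6 receptor, fell by 0.58 on the log2 scale.

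**Figure D4:**
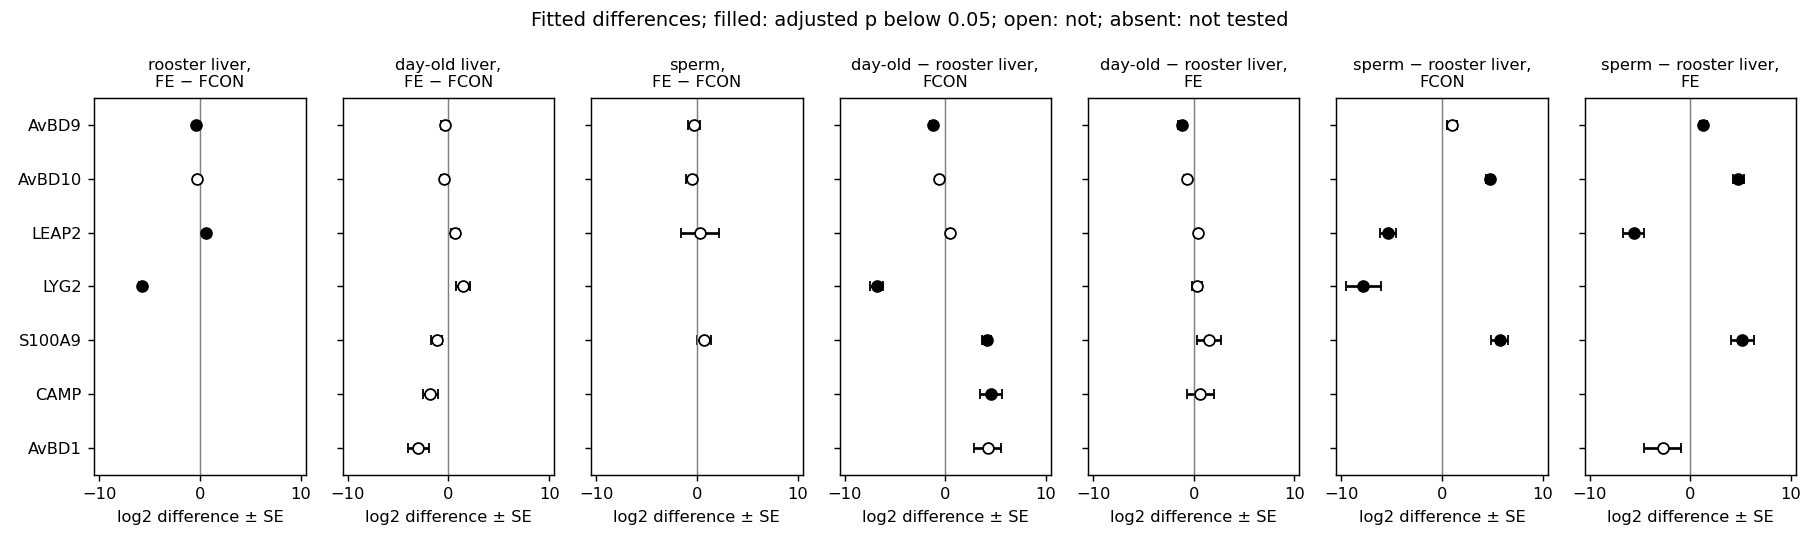
Log2 difference with SE (horizontal axes) of each tested gene in 7 comparisons. Filled points passed an adjusted p of 0.05, open points did not, and genes without a point were not tested; AvBD2 was never tested. LYG2 is far below 0 where the libraries labelled rooster FCON are the reference for liver or for age, and AvBD10 and S100A9 are above 0 in sperm under both diets.

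In the day-old chicks, none of the 7 genes tested passed for the diet of the father, and edgeR called 0% of 9700 genes. At an unadjusted p below 0.05 there were 679 genes, and DESeq2 called 38. The lack of edgeR calls does not show that the diet of the father left any gene unchanged. AvBD1, CAMP and LYG2 had no overlap between FCON and FE, as had 13.9% of all genes tested. For AvBD1 the filter set this in advance, since only the FCON pools reached 1 FPKM (2.49 to 4.63, against at most 0.99 in FE).

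AvBD1 held 62, 36 and 32 counts in day-old FCON liver and 12, 21 and 0 in day-old FE liver, 1.84, 1.57 and 1.20 against 0.275, 0.290 and 0 CPM. The FCON pools were the higher, with a log2 difference of -2.98 (SE 1.01, interval -4.96 to -0.997, adjusted p = 0.701). CAMP held 3.17, 1.18 and 0.861 CPM in FCON and 0.458, 0.428 and 0.612 CPM in FE, with a difference of -1.81 (SE 0.75, interval -3.28 to -0.35, adjusted p = 0.701). S100A9 had the same sign, with 7.24, 4.81 and 3.78 CPM against 4.30, 1.57 and 1.26 CPM, and its groups overlapped. Its difference was -1.18 (SE 0.56, interval -2.28 to -0.07, quasi-likelihood test, unadjusted p = 0.066, adjusted p = 0.701). LYG2 had the opposite sign, 1.45 (SE 0.69, adjusted p = 0.701). AvBD9 (-0.36), AvBD10 (-0.42) and LEAP2 (0.62) overlapped between the groups. CSF3R held 8.60, 8.92 and 3.18 CPM in FCON and 2.24, 2.58 and 4.26 CPM in FE, and none of the 7 tested genes of the heterophil list passed.

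Sperm gave no call for diet among the 4 genes tested, or among all 8811 genes tested with edgeR (0%). For all 4 the groups overlapped, where 10.1% of all genes tested had no overlap. There were 296 genes at an unadjusted p below 0.05, and DESeq2 called 0. Without sperm FCON replicate 2 edgeR called 182. The log2 difference of FE against FCON was -0.26 (SE 0.58, interval -1.40 to 0.88) for AvBD9 and -0.52 (SE 0.54, interval -1.57 to 0.54) for AvBD10. AvBD10 was lower in FE in each of the 3 same-numbered pairs, and did not pass with a replicate block either. For S100A9 the difference was 0.70 (SE 0.71, interval -0.69 to 2.08), with 1.83 without sperm FCON replicate 2 and 0.083 without sperm FE replicate 3, neither a call. All 3 intervals include 0, and a diet effect of a size within them was not detectable with these libraries. The lack of calls does not show that diet left any gene unchanged. Without sperm FCON replicate 3, which had the highest AvBD9, the AvBD9 difference turned to 0.39.

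The diet effect in rooster liver was set against that in day-old liver for 7 genes, and 2 passed, against 18.7% of 11002 genes (8.44% higher, 10.2% lower). These 2054 calls became 1244 to 1251 with any 1 library labelled rooster FCON left out. The log2 difference of the 2 effects was -7.20 (SE 0.71, adjusted p = 0.00016) for LYG2, which had a log2 effect of -5.74 in roosters and 1.45 in chicks. For AvBD1 it was 8.28 (SE 2.39, adjusted p = 0.0316), with more AvBD1 in rooster FE and in day-old FCON. AvBD1 passed the filter only through these 2 groups, with at most 0.67 FPKM in rooster FCON and 0.99 FPKM in day-old FE. Its sign was thus set in advance. The value of 8.28 is fitted on few counts, 16 and 187 in roosters and 130 and 33 in chicks. Its call was lost in 9 of 21 alternatives, among them without rooster FCON 1 or 2, rooster FE 2 or 3, or any day-old FE pool (adjusted p up to 0.0716). Without rooster FCON replicate 3 the value was 12.94. For LYG2 it was -7.86 without day-old FCON replicate 2. AvBD9, AvBD10 and LEAP2 had differences of -0.04, 0.05 and -0.03, with intervals of -0.81 to 0.73, -0.74 to 0.84 and -0.89 to 0.83.

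By age, day-old liver held less AvBD9 than rooster liver under both diets. The day-old levels were 4082, 2853 and 2265 CPM in FCON and 3444, 2122 and 1684 CPM in FE, all below every rooster liver. AvBD9 fell by 1.22 on the log2 scale (SE 0.25, adjusted p = 0.0136) under FCON and by 1.20 (SE 0.31, adjusted p = 0.0232) under FE. The calls were lost without any 1 library labelled rooster FCON (adjusted p up to 0.0588) and without rooster FE replicate 2 or 3 (adjusted p up to 0.0716). Under FE the difference was -0.37 on library totals, where the median of all genes shifted by 0.92. AvBD10 had -0.61 (adjusted p = 0.0990) and -0.68 (adjusted p = 0.136), and LEAP2 0.45 under each diet (adjusted p = 0.363 and 0.236).

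Against the libraries labelled rooster FCON, day-old FCON liver had more S100A9 and CAMP and less LYG2. Of 7 genes tested 2 rose and 2 fell, against 29.4% of 10339 genes called, and 6 had no overlap, against 53.5%. AvBD1 and CAMP passed the filter only through day-old libraries, with at most 0.67 and 0.41 FPKM in rooster FCON. Their lack of overlap was thus set in advance. The 3037 genes called became 783 to 810 with any 1 library labelled rooster FCON left out. S100A9 was higher by 4.11 (SE 0.45) log2 (adjusted p = 0.00244), 17.2-fold. CAMP was higher by 4.58 (SE 1.10) log2 (adjusted p = 0.0231), on 157 counts in day-old and 14 in rooster liver. AvBD1 had 4.21 (SE 1.35) log2, with 130 against 16 counts, and did not pass (adjusted p = 0.0566). It passed with DESeq2 (adjusted p = 0.0162), on FPKM (adjusted p = 0.00219), and without rooster FCON replicate 3 (adjusted p = 0.0275), where the rooster group is at 0 counts and the fitted 8.97 is no bound. The CAMP call was lost without any 1 library labelled rooster FCON (adjusted p up to 0.106), with 3.97 without replicate 2 and 5.63 without replicate 3. LYG2 fell by 6.81 on the log2 scale (SE 0.65, adjusted p = 0.00178), and by 7.49 without day-old FCON replicate 2.

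Under FE, which does not use the libraries labelled rooster FCON, only AvBD9 passed among 6 genes tested, against 27.4% of 9847 genes. These 2700 calls became 1705 and 1485 without rooster FE replicate 2 or 3. AvBD9 was also the only gene of the 6 with no overlap, against 47.3% of all genes. S100A9 was at 1.52 (SE 1.17, interval -0.77 to 3.82, adjusted p = 0.361), CAMP at 0.67 (SE 1.33, interval -1.94 to 3.29, adjusted p = 0.735) and LYG2 at 0.36 (SE 0.49, interval -0.60 to 1.31, adjusted p = 0.615). Rooster FE replicate 2 held 2.14 CPM of S100A9, more than 2 of the 3 day-old FE pools, and without that library S100A9 was higher in day-old liver by 4.19 log2 (adjusted p = 0.0448). That library also held all 17 counts of CAMP in rooster FE, and the CAMP value lay between 0.058 and 0.80 without any 1 other library and at 7.15 (adjusted p = 0.0603) without it, which is no bound since rooster FE is then at 0. On FPKM both genes passed, at 1.79 for S100A9 and 0.83 for CAMP (adjusted p = 0.00077 and 0.0229). The median of all genes shifted by 0.72 on that scale, where 4111 genes were called higher and 427 lower. The value of CAMP was thus near that of the median gene.

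Of the other heterophil and granulocyte genes, 1 rose and 2 fell among 8 tested by age under FCON, beside 15.6% of all genes higher and 13.8% lower. PGLYRP2, a peptidoglycan amidase made in liver, was higher in day-old liver by 1.53 log2 (adjusted p = 0.00502). RSFR, a ribonuclease of the RNase A family, and NCF1 were lower with log2 differences of -2.11 and -2.04 (adjusted p = 0.0101 and 0.0209), and 5 did not pass. Under FE 1 of 8 rose, PGLYRP2, and 5 fell (CSF3R, NCF1, CYBA, CYBB and RSFR), beside 14.7% of all genes higher and 12.8% lower. CATH3 and CATH1, the cathelicidins beside CAMP, held 596 and 48 counts in day-old FCON liver and 16 and 0 in rooster FCON liver. Under FE CATH3 went the other way, with 162 counts in day-old and 325 in rooster liver, and CATH1 had 81 and 0. Myeloid progenitor markers summed to 37.9 to 51.0 CPM in day-old FCON and 39.5 to 40.2 CPM in rooster FCON liver. Under FE these sums were 29.2 to 36.0 CPM in day-old and 77.5 to 130 CPM in rooster liver. Their part in the differences was not tested.

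**Figure D5:**
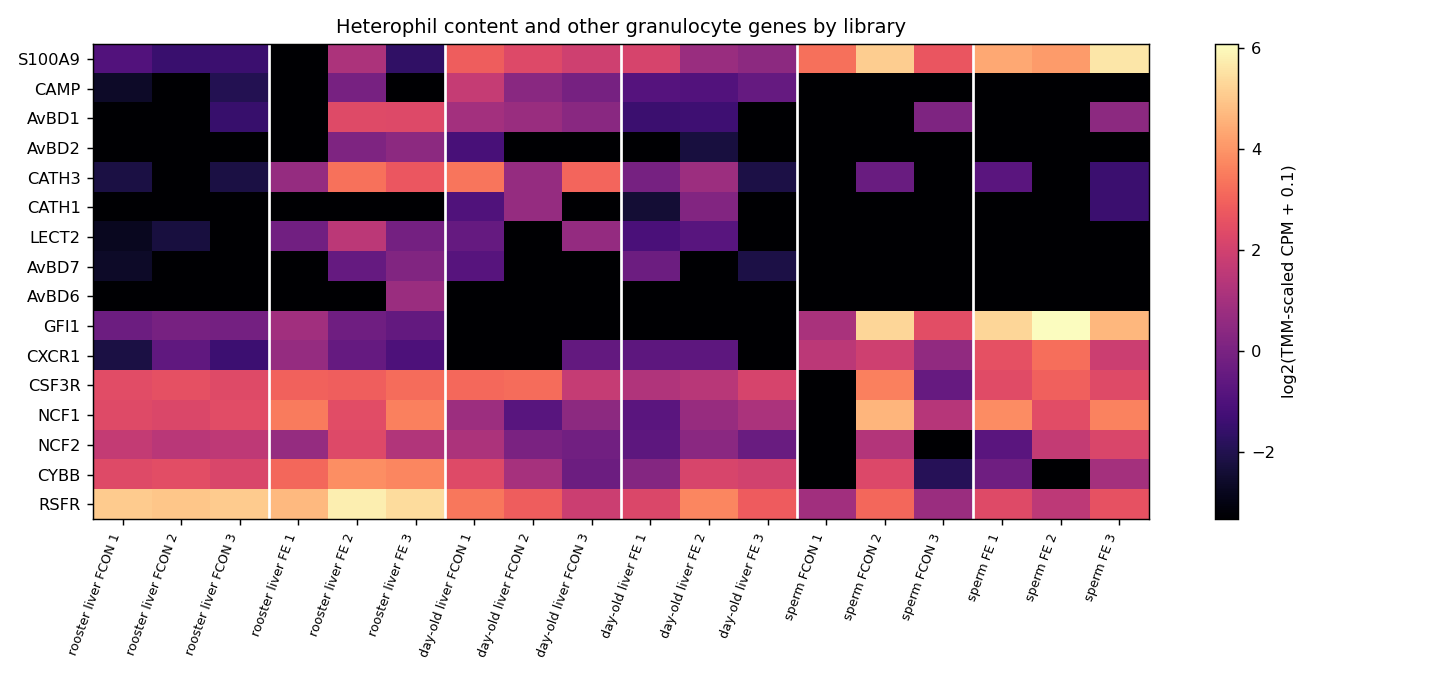
TMM-scaled CPM of 16 selected genes (rows) in the 18 libraries (columns), coloured as log2(CPM + 0.1). White lines part the groups. Shown are S100A9, CAMP, AvBD1, AvBD2, CATH3, CATH1, AvBD7, AvBD6 and part of the heterophil and granulocyte list. Of that list MMP9, NCF4, CYBA, ITGB2, ALOX5, TREMB1, PADI3 and PGLYRP2 are not shown. ITGB2 and PGLYRP2 were lower in sperm than in rooster liver under FCON, by log2 differences of -4.18 and -7.56. Both passed the filter there only through liver, so this direction was set in advance. S100A9, GFI1 and CXCR1 have their highest values in sperm, where CAMP, AvBD2 and LECT2 are at 0, and AvBD1, AvBD2 and CATH3 are highest among rooster livers in FE replicates 2 and 3.

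In the order of the 6 group means, AvBD9 and AvBD10 ran from sperm through rooster liver to day-old liver. For AvBD9 the 2 sperm groups overlapped each other, as did the 2 day-old groups, while rooster FCON and rooster FE overlapped no other group. For AvBD10, rooster FE overlapped day-old FCON. LEAP2 ran from day-old FE at 22.8 ± 5.74 CPM through rooster FE at 16.3 ± 1.44, day-old FCON at 14.6 ± 6.57 and rooster FCON at 11.3 ± 0.935, each of these 4 overlapping the next, to sperm at 0.336 ± 0.423 in FE and 0.235 ± 0.216 in FCON. S100A9 ran from sperm through day-old FCON at 5.28 ± 1.78 CPM and day-old FE at 2.38 ± 1.67 to rooster FE and rooster FCON, and every group overlapped the next. CAMP was highest in day-old FCON liver at 1.74 ± 1.25 CPM, with no overlap with day-old FE at 0.499 ± 0.0992, and AvBD1 was highest in rooster FE at 3.30 ± 2.86 CPM, overlapping day-old FCON at 1.54 ± 0.322. AvBD9 and AvBD10 correlated at r = 0.82 and AvBD10 and LEAP2 at r = -0.97 over the 18 libraries, as a description of points that share tissue and depth.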

How the data were processed

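PolyA RNA was sequenced in 18 libraries. The authors deposited 1 table of FPKM and whole-number estimated counts for 23741 genes; the submitters' processing notes name cutadapt, HISAT2 and StringTie, with versions, build and strandedness not given in the sources used here. Deposited FPKM are relative to the whole library, including 37 nuclear rRNA genes. The 8 genes were matched by symbol. They, the tests and the 13 companion lists (150 of 181 symbols matched) were chosen with earlier results of these data known. CATH2 and S100A12 were removed from those lists because they are CAMP and S100A9 by another symbol. Named companions are the called genes with the 3 smallest p per direction in a list, further ones being named after their values were seen, and for likeness the 3 highest Pearson r.

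The main test was edgeR 4.0.16 (R 4.3.3), quasi-likelihood, TMM, on the libraries of each of 8 comparisons, for genes of at least 1 FPKM in at least 3 libraries, with Benjamini-Hochberg adjustment. Intervals are 95% normal intervals of the log2 difference. Groups at 0 were set to 3 counts over the group for bounds, which cover counting error only. Alternatives were DESeq2 1.42.0, limma 3.58.1 on log2(FPKM + 1) and log2(FPKM + 0.1), other scalings and filters, rRNA left out, other fits and each library left out. The titles give liver and sperm of a diet the same breeder rooster numbers, so same-numbered ones may come from 1 bird. In FCON, however, W genes stood at 1015 to 1117 CPM in the liver libraries and at 9.74 to 22.4 CPM in the sperm libraries. Whether liver and sperm share birds was not tested. Nothing in the labels says that other same-numbered libraries share a source. The main tests paired no libraries. After removal of group means, same-numbered sperm libraries of FCON and FE correlated at 0.119, 0.179 and 0.243, so the numbers may pair them. In no other comparison were all 3 above 0.1. For sperm against rooster liver they were -0.033, -0.012 and -0.015 in FCON and 0.033, -0.066 and 0.037 in FE. Replicates are separate birds or pools only as labelled, so p measures the spread between these libraries. The test was tried on simulated counts with known changes. For diet in sperm and for sperm against rooster liver under FCON it missed the changes made. In the other comparisons it missed most or all of the smaller changes and part of the larger ones. For the difference of diet effects and for sperm against rooster liver under FE it missed most of the larger ones too. The simulation changed 100 genes per size of change, where the real comparison of sperm with rooster liver under FCON called 5337. What it missed is thus no measure of what was missed in these data.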

Additional observations from a re-analysis of the deposited data

Results flagged for a closer look

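Of the 8 genes, 2 had a diet effect that differed between rooster liver and day-old liver, by the test of the difference itself. For LYG2 the log2 difference of effects was -7.20, with 24277 and 116 counts in rooster FCON and FE and 87 and 453 counts in day-old FCON and FE. For AvBD1 it was 8.28, with 16 and 187 counts in roosters and 130 and 33 counts in chicks. AvBD1 passed the filter only through rooster FE and day-old FCON, so its sign was set in advance. Both differences include the libraries labelled rooster FCON, in which W genes stood at 1015 to 1117 CPM.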

How the results depend on the processing

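The number of the 8 genes called moved for rooster diet from 3 to 1 in a fit of all 12 livers; for the difference of diet effects from 2 to 5 on log2(FPKM + 1) and log2(FPKM + 0.1), and to 1 with FPKM of at least 5, with a replicate block, or with both pools numbered 2 left out; and for age under FE from 1 to 4 on both FPKM scales and to 2 with FPKM of at least 5. On the 2 FPKM scales the median of all genes shifted by -1.06 and -1.45 for the difference of effects. For age under FE it shifted by 0.72 and 0.92. Leaving out 1 library gave 1 to 2 calls for the difference of effects, 2 to 4 for age under FCON (main 4) and 0 to 2 for age under FE. Of 734 results for single genes under alternatives, 622 kept their direction and side of the threshold, 34 lost and 30 gained a call and 48 changed sign. Of the sign changes, those of called values were LEAP2 for rooster diet, at -0.33 on library totals and -0.35 and -0.36 on the FPKM scales.

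Sign changes of values that had not passed, in log2, were as follows. On library totals, AvBD9 had 0.0037 and AvBD10 0.0088 for offspring diet, LEAP2 -0.23 for sperm diet, AvBD10 -1.33 for the difference of effects and AvBD10 0.22 for age under FE. On log2(FPKM + 1) and log2(FPKM + 0.1), AvBD9 had 0.038 and 0.038 for offspring diet, LEAP2 -0.19 and -0.49 for sperm diet, AvBD10 -1.34 and -1.34 for the difference of effects, LEAP2 -0.14 and -0.14 for age under FCON, AvBD10 0.20 and 0.20 for age under FE, and AvBD9 -0.22 and -0.22 for tissue under FCON. For the difference of effects, AvBD9 had 0.00983 and LEAP2 0.030 with DESeq2 and with its size factors in edgeR, AvBD10 had -0.059 with no filter and -0.048 with FPKM of at least 5, and without both pools numbered 2 AvBD10 had -0.20 and LEAP2 0.10. Leaving out 1 library gave ranges of -0.53 to 0.39 for AvBD9 and -0.18 to 0.91 for LEAP2 in sperm, and for the difference of effects -0.30 to 0.29 for AvBD9, -0.14 to 0.37 for AvBD10, -2.79 to 4.96 for CAMP, -0.41 to 0.25 for LEAP2 and -0.14 to 3.29 for S100A9. CAMP and S100A9 turned negative there only without rooster FE replicate 2. The cause was not tested.

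The replicate block turned LEAP2 in sperm to -0.35 and changed no other direction; in sperm, where the numbers may pair the libraries, it left 0 calls. Elsewhere the libraries share only a number, or, for sperm against rooster liver, a rooster number in the titles. There the block ended the calls of LEAP2 for rooster diet, AvBD1 for the difference of effects and CAMP for age under FCON. Over all genes, the called ones in rooster diet split into 2101 higher and 2168 lower with TMM, 285 and 4931 on library totals and 306 and 5922 on log2(FPKM + 1). The all-gene counts also moved over 1.5 times for rooster diet from 4269 to 2298 in a fit of all 12 livers; for offspring diet from 0 to 17 in that fit; for the difference of effects from 2054 to 4878 on library totals, 5776 and 5522 on the FPKM scales and 1210 with a replicate block; for age under FE from 2700 to 4538 and 4175 on the FPKM scales; and, with FPKM of at least 5, for tissue from 5337 to 3420 under FCON and from 4954 to 2736 under FE, the latter also to 2992 on library totals.

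Depth limits AvBD1, AvBD2 and CAMP, with 421, 62 and 258 counts over 18 libraries.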
